A study of Mus musculus with 6 samples.

Results

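The insulin-like growth factor binding proteins Igfbp1 to Igfbp7 were followed in mouse liver during chronic alcohol feeding. Members were chosen by name, as every probe that the array files call Igfbp1 to Igfbp7, which gave 10 of the 41174 non-control probes for all 7 genes. Of the genes, 4 had 1 probe and 3 (Igfbp3, Igfbp4 and Igfbp5) had 2 probes. Male 129/Sv mice, 6 to 8 weeks old at the start, formed an alcohol group and a control group. Ethanol made up 4% of the liquid food of the former, and maltose dextran supplied its calories to the latter; intake was not restricted. All mice took the control liquid diet during a preconditioning period before the split. Equal amounts of liver RNA from 6 mice were pooled for each diet after 1, 2 and 4 months. The alcohol pool and the control pool of a month were hybridized together on 2 two-color arrays with the dyes exchanged, giving 6 arrays. There is therefore 1 alcohol pool and 1 control pool per month. The SD over the 2 arrays of a month is technical, and the arrays do not measure the variation between mice. The study measured Igfbp1 mRNA and its serum protein in single mice by other methods, and those values are not used here. The 1-month arrays came from a slide of their own, and the 2-month and 4-month arrays shared a second slide. Slide and time therefore cannot be told apart between 1 month and the later months.

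Igfbp1 to Igfbp6 are secreted proteins that bind insulin-like growth factors (IGF1 and IGF2) with high affinity, carry them in blood and tissue, and limit or prolong their access to the IGF1 receptor. Igfbp7 shares the N-terminal domain of the family but binds these growth factors weakly. In adult liver Igfbp1, Igfbp2 and Igfbp4 are made largely by hepatocytes, whereas Igfbp3, Igfbp5, Igfbp6 and Igfbp7 come mainly from endothelial, stellate and other non-parenchymal cells. Igfbp1 is the acutely regulated member: insulin lowers its transcription through the FOXO factors, and fasting, hypoxia, amino acid shortage and stress raise it.

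The family was measured above background. On every array and in both channels, 9 of the 10 probes were well above background. The remaining one, the dimmer Igfbp3 probe A_52_P253179, missed this mark in the alcohol pool on 1 array of 1 month. None was saturated. Over all probes well above background throughout, the ratios of the 2 arrays of a month correlated at 0.16, -0.30 and -0.32 (1, 2 and 4 months; Pearson's r across 27900 probes, which are not independent). For this reason each monthly ratio is the mean of a dye-swap pair, given with the SD of the pair or with both arrays.

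Igfbp1 was the 1 member that differed between the diets by 2-fold or more. Its log2 ratio of alcohol over control was -0.39 and -0.06 on the arrays of 1 month (alcohol in Cy5 and in Cy3, respectively), 1.72 and 2.23 on those of 2 months, and 2.58 and 2.89 on those of 4 months. Both arrays of 1 month lay below 0, and all 4 arrays of the later months lay above it without overlap with 1 month. The monthly means were -0.23 ± 0.23, 1.97 ± 0.36 and 2.74 ± 0.22 (SD of 2 arrays), or 0.853-fold, 3.93-fold and 6.66-fold of control. For the earliest month, though not for the later ones, this direction is opposite to that of the array values in the study. The study's text and supplement differ on the size for that month. In single mice the study found no significant change of Igfbp1 mRNA or serum protein at that month. The 1-month mean was no larger than the SD of its pair.

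In scanner units, the Igfbp1 signal of the alcohol pool at 1 month was 3706 against 4872 in the control pool with alcohol in Cy5, and 3056 against 3194 with alcohol in Cy3. At 2 months it was 13942 against 4231 and 16418 against 3504. At 4 months it was 33891 against 5677 and 41840 against 5627. The alcohol pool was thus brighter in either dye at 2 and 4 months and slightly dimmer in either dye at 1 month. The scanner took the alcohol value from its low-gain scan on all arrays of 2 and 4 months and on neither array of 1 month, as it does for bright spots. The control value came from the high-gain scan except on the second array of 4 months, where both pools were read at low gain and the log2 ratio was 2.89.

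**Figure D1:**
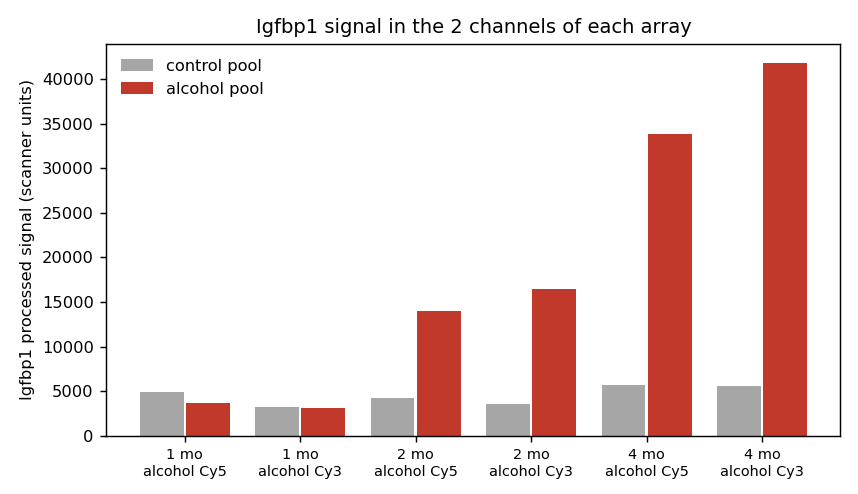
Processed signal of the Igfbp1 probe (scanner units, linear axis from 0) in the control pool (grey) and alcohol pool (red) on each of the 6 arrays, labelled by months on diet and by the dye of the alcohol pool. The red bars exceed the grey ones on the 4 arrays of 2 and 4 months and are shorter on both arrays of 1 month.

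The level of Igfbp1 was also computed in each pool. Levels are log2 signals relative to the 75th percentile of their channel, averaged over both dyes, and are compared between pools for 1 probe only. In order, they were 4.03 ± 0.46 in the 4-month alcohol pool, 3.36 ± 0.43 in the 2-month alcohol pool, 1.89 ± 0.38 in the 1-month control pool, 1.66 ± 0.14 in the 1-month alcohol pool, 1.39 ± 0.07 in the 2-month control pool and 1.29 ± 0.23 in the 4-month control pool (SD of 2 dyes). The 2 upper pools stood apart from the 4 lower ones. Among the lower pools the 1-month pools overlapped in their dye values, as did the control pools of 2 and 4 months. On the slide that holds both later months, the alcohol pool rose from 2 to 4 months by 0.67 (0.65 in Cy5 and 0.69 in Cy3), and the control pool differed by -0.10 (0.02 and -0.21). From 1 to 4 months the alcohol pools differed by 2.37 ± 0.60 and the control pools by -0.59 ± 0.61. This step crosses slides, and in it 9.92% of the 27900 probes well above background were at least 2-fold higher and 21.6% at least 2-fold lower in the alcohol pools, so it cannot be read apart from the slide. With each channel scaled by its median instead, these differences were 2.92 and -0.05. In pooled tissue RNA, more cells that express a gene and more RNA per cell cannot be told apart.

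The remaining members stayed within 2-fold at every month. Over their 9 probes the monthly log2 ratios ran from 0.03 to 0.33 at 1 month, from -0.57 to 0.14 at 2 months and from -0.27 to 0.25 at 4 months. The mean exceeded the SD of its 2 arrays in 12 of 27 probe-months, and the 2 arrays had the same sign in 13 of 27. At least 2-fold higher in the alcohol pool were 0 of 7 genes at 1 month, 1 of 7 at 2 months and 1 of 7 at 4 months, beside 0.148%, 0.228% and 0.447% of all probes. At least 2-fold lower were 0 of 7 genes at each month, beside 0.0874%, 0.223% and 0.364% of all probes. The single gene counted was Igfbp1, which the study picked from these arrays, so the count is a description.

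**Figure D2:**
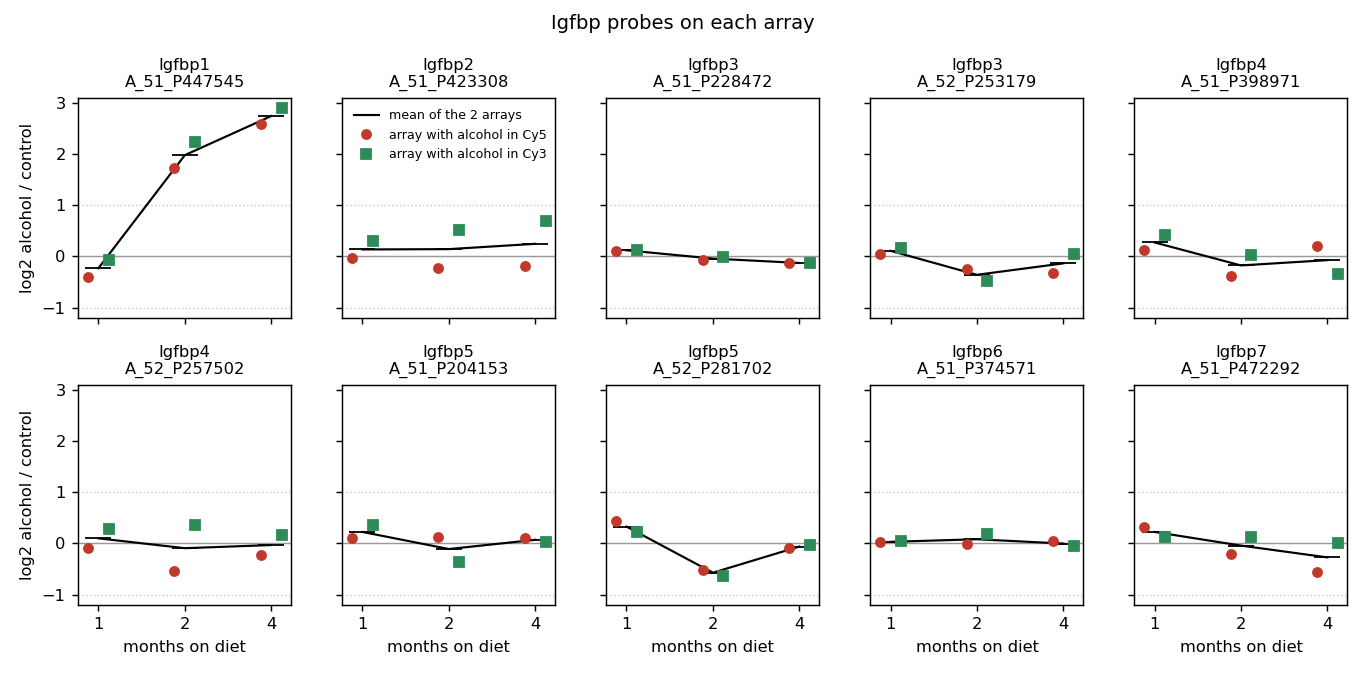
Log2 ratio of alcohol over control (vertical axis) by months on diet for each of the 10 Igfbp probes; red circles are arrays with alcohol in Cy5, green squares arrays with alcohol in Cy3, black lines join the means, and dotted lines mark 2-fold. Igfbp1 lies between 1.72 and 2.89 on the arrays of 2 and 4 months, and every point of the other members lies within the dotted lines.

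Igfbp2, the main binding protein made by hepatocytes besides Igfbp1, differed more between the dyes than between the diets. Its log2 ratios with alcohol in Cy5 were -0.02, -0.22 and -0.19 at 1, 2 and 4 months, and with alcohol in Cy3 they were 0.29, 0.51 and 0.68. The sign followed the dye at all 3 months. The means were 0.14 ± 0.22, 0.14 ± 0.51 and 0.25 ± 0.62. The dye-dependent part of the ratio (the difference between the arrays divided by 2) was 0.16, 0.36 and 0.44, against 0.17, 0.25 and 0.16 for Igfbp1.

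Igfbp4, an inhibitory binding protein that the protease pappalysin (Pappa) cleaves to release IGFs, was near 0 with both probes. The brighter probe A_51_P398971 gave 0.27 ± 0.21, -0.18 ± 0.30 and -0.07 ± 0.38, and the probe A_52_P257502 gave 0.10 ± 0.25, -0.09 ± 0.63 and -0.03 ± 0.28. The 2 arrays of a month had opposite signs for both probes at 2 and 4 months. No month separated the diets beyond the spread of its arrays except the brighter probe at 1 month, where the ratios were 0.13 and 0.42.

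Igfbp3, the main carrier of IGFs in blood together with the acid-labile subunit, had small ratios, which repeated well for 1 of its 2 probes. The brighter probe A_51_P228472 gave 0.11 and 0.13 on the arrays of 1 month, -0.07 and -0.01 on those of 2 months, and -0.12 and -0.13 on those of 4 months. Its means of 0.12 ± 0.02, -0.04 ± 0.04 and -0.13 ± 0.01 correspond to 1.09-fold, 0.972-fold and 0.916-fold of control. The second probe, A_52_P253179, gave 0.11 ± 0.07, -0.36 ± 0.17 and -0.13 ± 0.27, with -0.33 and 0.06 on the arrays of 4 months. Igfbp3 is the chromosomal neighbour of Igfbp1 in the mouse genome, and both of its probes stayed within 2-fold at every month.

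Igfbp5, a matrix-associated binding protein, was measured by 2 probes that disagreed at 2 months. The probe A_51_P204153, brighter in the mean over all arrays, gave 0.23 ± 0.18, -0.11 ± 0.34 and 0.07 ± 0.06. The probe A_52_P281702 gave 0.33 ± 0.16, -0.57 ± 0.08 and -0.06 ± 0.04, with -0.51 and -0.63 on the arrays of 2 months. The signals behind that lowest value were 76.2 against 109 and 63.6 against 98.1 scanner units. The other probe read 0.14 and -0.35 on the same arrays, from signals as dim, 119 against 108 and 56.3 against 71.8.

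Igfbp6, which prefers IGF2 over IGF1, stayed near 0 at every month, with 0.03 ± 0.01, 0.08 ± 0.13 and -0.00 ± 0.07. Igfbp7, a product of endothelial and stellate cells, gave 0.22 ± 0.15, -0.04 ± 0.24 and -0.27 ± 0.41. At 4 months its arrays read -0.56 and 0.02, so the mean rested on the array with alcohol in Cy5. At 1 month both arrays lay above 0, at 0.33 and 0.12. The 8 markers of sinusoidal endothelial cells had a median log2 ratio of 0.36 at the same month, led by the hyaluronan receptor Lyve1 at 0.95 ± 0.25, and of 0.00 and -0.08 at 2 and 4 months. All 8 were above 0 at 1 month and well above background, and their summed level was 7.73 in the alcohol pool against 6.21 in the control pool. The part of these cells in the Igfbp7 and Igfbp5 ratios of 1 month was not tested.

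The distance of Igfbp1 from the rest of the family was computed on each array as its log2 ratio minus the median of the other 6 genes. The 1-month arrays gave -0.50 and -0.28, the 2-month arrays 1.86 and 2.15, and the 4-month arrays 2.61 and 2.91. The monthly means were -0.41 ± 0.16, 2.02 ± 0.20 and 2.77 ± 0.21. At 1 month Igfbp1 thus lay below the median of its relatives on both arrays, and at the later months far above it. Among the 27900 probes well above background throughout, Igfbp1 ranked 26467 from the top after 1 month, 6 after 2 months and 3 after 4 months. The probes above it at 4 months measured the cytochrome P450 genes Cyp2b10 and Cyp2b9.

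Taking the 3 months as replicates of alcohol feeding, limma with Benjamini-Hochberg adjustment over 37922 probes called 0 members. The share called over all probes was 0%, with 3012 probes at an unadjusted p under 0.05. For Igfbp1 the mean log2 ratio was 1.49 with a standard error of 0.58 (adjusted p = 0.63 in limma), and the alcohol pool was higher at 2 of 3 months. Igfbp2 reached an unadjusted p of 0.040 with a mean of 0.18 and an adjusted p of 0.63 in limma. The other 5 genes had adjusted p values in limma between 0.77 and 0.99. Without 1 month, the Igfbp1 mean was 2.36 (adjusted p = 0.35 in limma), and without 4 months it was 0.87 (adjusted p = 0.999 in limma).

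The slope on the log2 of the month asked whether the ratio grew with time. Igfbp1 gained 1.48 per doubling of the time on diet, with a standard error of 0.22 (adjusted p = 0.69 in limma), and ranked 120 by p of 37922 probes. This slope rests on 3 values and joins 2 slides. Again 0 members were called, beside 0% of all probes and 2701 probes at an unadjusted p under 0.05. Igfbp7 had the next smallest p among the members, with a slope of -0.25 (adjusted p = 0.69 in limma). With normexp background correction and loess together the limma adjusted p of the Igfbp1 slope was 0.0504, which still did not pass the threshold of 0.05.

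The levels of Igfbp4, Igfbp5 and Igfbp6 were also followed over the pools. From 2 to 4 months, within a slide, the brighter Igfbp4 probe A_51_P398971 stood at 4.88 and then 4.13 in the alcohol pools and at 5.06 and then 4.20 in the control pools. Its differences of -0.75 ± 0.43 and -0.86 ± 0.25 (SD of 2 dyes) were the largest of any member's probe in that step in either diet. The probe A_52_P257502 differed by -0.38 ± 0.20 and -0.45 ± 0.16. At least 2-fold lower in that step were 1.95% and 1.73% of probes, and Igfbp4 was not among them. Igfbp5 (probe A_51_P204153) stood at -0.89 in the alcohol pool and -1.11 in the control pool of 1 month, at -4.17 and -4.06 in the pools of 2 months, and at -4.24 and -4.31 in those of 4 months. Between the slides it fell by 3.29 in the alcohol pools and fell by 2.95 in the control pools. The second probe, A_52_P281702, fell by 2.53 in the alcohol pools and fell by 1.63 in the control pools. In the step from 1 to 2 months 22.2% of the 27900 probes well above background were at least 2-fold lower in the alcohol pools and 22.2% in the control pools, so these falls cannot be read apart from the slide. From 2 to 4 months the second probe differed by 0.58 ± 0.57 in the alcohol pools and by 0.07 ± 0.46 in the control pools (SD of 2 dyes). Igfbp6 stood at 0.87 and 0.84, then at 1.74 and 1.67, then at 2.37 and 2.38. Its step from 2 to 4 months lies within a slide and was 0.63 ± 0.42 in the alcohol pools and 0.71 ± 0.63 in the control pools (SD of 2 dyes). At least 2-fold higher in that step were 1.06% and 0.806% of probes, and Igfbp6 was not among them.

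**Figure D3:**
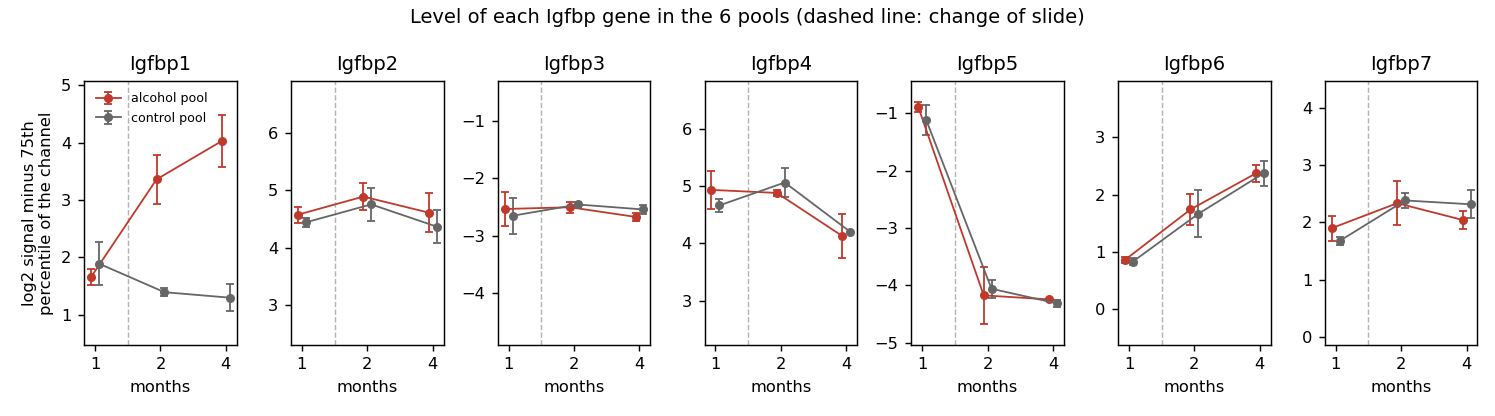
Level of each Igfbp gene (brightest probe; log2 signal minus the 75th percentile of its channel, mean and SD of 2 dyes) in the alcohol pools (red) and control pools (grey) by months on diet; panels share the length of the axis but not its position, and the dashed line marks the change of slide. The pools of a month differ by 2-fold or more only for Igfbp1, at 3.36 against 1.39 and at 4.03 against 1.29, while for the plotted probes of Igfbp5 and Igfbp6 the alcohol and control points lie close to each other in each month.

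The promoter of Igfbp1 is shown because the insulin response element of this gene lies close to its start, and that of Igfbp3 because it is the neighbouring gene, which stayed within 2-fold at every month. Both are the 250 bases before a RefSeq start in the mouse build GRCm38.p6, written 5′ to 3′ on the strand of the gene. Igfbp1 lies at chr11:7197537-7197786 on the plus strand and Igfbp3 at chr11:7213924-7214173 on the minus strand. The Igfbp3 window lies inside the RefSeq span of its gene, chr11:7206086-7215498. Capitals mark the searched motifs.
Igfbp1: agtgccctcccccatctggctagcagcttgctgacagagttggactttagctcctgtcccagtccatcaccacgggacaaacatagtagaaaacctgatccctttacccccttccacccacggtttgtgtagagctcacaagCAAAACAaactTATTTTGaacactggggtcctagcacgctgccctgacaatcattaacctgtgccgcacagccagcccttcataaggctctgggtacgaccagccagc
Igfbp3: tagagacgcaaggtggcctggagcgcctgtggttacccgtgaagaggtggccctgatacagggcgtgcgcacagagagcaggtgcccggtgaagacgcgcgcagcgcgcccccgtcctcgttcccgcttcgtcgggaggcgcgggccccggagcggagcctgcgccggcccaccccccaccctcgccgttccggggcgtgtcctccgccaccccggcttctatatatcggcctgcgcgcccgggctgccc

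The motifs searched on both strands were CAAAACA and CAAAATA, the forms of the insulin response element, and GTAAACA, another sequence that FOXO factors bind. TGATGCAA, a composite of ATF4 and C/EBP factors, was searched as well. Igfbp1 held CAAAACA from 108 to 102 bases before its start and, on the opposite strand, CAAAATA from 97 to 91 bases before it (read as TATTTTG above), with 4 bases between them. Of 32851 promoter windows of 300 bases, which reach 50 bases past the start, 6.28% held CAAAACA, 4.36% held CAAAATA and 0.472% held both. The 7 windows of the other members (Igfbp2 has 2) held 0 matches to any of the motifs. The windows of Igfbp3 and Igfbp4 lie within the spans of their genes, and the bases before the outer end of those spans were not searched. GTAAACA stood in 3.65% and TGATGCAA in 0.895% of all windows and in none of the family. A match is a run of letters and does not show that a factor was bound.

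Genes that insulin lowers in hepatocytes, as it does Igfbp1, were set beside it. Of the 9 of 10 listed genes with a probe, 0 passed 2-fold at any month, and the list's median was -0.07, then 0.22 and then 0.29 with time on diet, where the median of all tested probes was 0.00, 0.01 and -0.01. The largest value was that of Pdk4, which encodes a kinase that blocks pyruvate oxidation in fasting, with 0.89 ± 0.50, 0.86 ± 0.15 and 0.84 ± 0.13, although this probe was not well above background throughout. G6pc, the glucose-6-phosphatase that releases glucose, had -0.50 ± 0.12, 0.04 ± 0.20 and 0.73 ± 0.01. Like Igfbp1 it was below 0 on both arrays of 1 month and above 0 on both arrays of 4 months, at less than 2-fold. At 2 months the G6pc arrays read -0.09 and 0.18. Insr and Mttp had the sign of Igfbp1 on all 6 arrays, and no other gene of this list did so. The means were -0.07, 0.22 and 0.29 for Insr and -0.17, 0.22 and 0.16 for Mttp. Of all 6 lists, limma called 0 genes for the mean over the months.

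Genes that insulin raises were lower in the alcohol pools in the median at 1 and 2 months. The 8 lipogenic and glycolytic genes, all measured, had medians of -0.53, -0.42 and -0.01, the last being the median over pair means, where the single arrays gave -0.29 (alcohol Cy5) and 0.20 (alcohol Cy3). At least 2-fold lower were 2 genes at 1 month, 1 at 2 months and 0 at 4 months, beside 0.0874%, 0.223% and 0.364% of all probes. Fasn (fatty acid synthase) had -1.34 ± 0.44, -0.35 ± 0.35 and 0.15 ± 0.91. Acly (ATP citrate lyase) had -1.35 and -0.66 on the arrays of 1 month and -0.54 and 0.21 on those of 4 months. Thrsp, a regulator of lipogenesis, had -0.93 ± 0.38, -1.34 ± 0.25 and -0.01 ± 0.96. At 2 months the list's median lay below 0 and Igfbp1 above it, and at 4 months, where Igfbp1 was highest, the median was near 0.

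Of the ATF4 and integrated stress response targets, 14 of 14 were measured and the medians were 0.04, 0.16 and 0.18. At least 2-fold higher were 0, 2 and 1 of them at 1, 2 and 4 months, beside 0.148%, 0.228% and 0.447% of all probes. Fgf21, a fasting and stress hormone of the liver, had -0.17 ± 0.09, 1.85 ± 0.22 and 0.78 ± 0.08, and on single arrays -0.23 and -0.10, 1.69 and 2.01, and 0.73 and 0.84. It had the sign of Igfbp1 on all 6 arrays but was highest at 2 months. Ddit4, an inhibitor of mTORC1, had 0.23 ± 0.17, 1.00 ± 0.19 and 1.15 ± 0.10. Trib3, Asns and Ddit3, which respond to the same factor, lay between -0.21 and 0.34 at every month. Other listed genes passed that range, among them Chac1, Vldlr and Cth. Chac1 had -0.33 ± 0.29, 0.15 ± 0.18 and 0.46 ± 0.05, with the sign of Igfbp1 on all 6 arrays. Vldlr had 0.57 ± 0.32, -0.13 ± 0.50 and 0.72 ± 0.45, and Cth had 0.71 ± 0.02, -0.33 ± 0.78 and 0.39 ± 0.91. All 10 hypoxia targets were measured and 0 passed 2-fold, with medians of -0.02, -0.04 and 0.06. The largest among them was Pdk1, which restrains pyruvate oxidation in low oxygen, at -0.46 ± 0.52 at 2 months.

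The ligands, receptors and proteases of the IGF axis did not reach 2-fold at any month. Of 14 listed genes 13 had a probe, and their medians were -0.07, 0.02 and 0.05. Igf1, the main ligand made by liver, had -0.11 ± 0.17, -0.03 ± 0.53 and -0.01 ± 0.90, with -0.65 and 0.62 on the arrays of 4 months. The largest value of the list was that of Ghr, the growth hormone receptor, at 0.05 ± 0.08, -0.41 ± 0.50 and -0.63 ± 0.79. Its arrays of 4 months read -1.19 and -0.07, so this mean was smaller than its SD. Igfals, the acid-labile subunit that joins Igfbp3 in blood, had 0.19 ± 0.22, -0.52 ± 0.52 and 0.05 ± 0.71.

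Other secreted proteins with an N-terminal IGFBP domain were also compared, of which 12 of 13 had a probe. The medians were 0.01, 0.05 and 0.01. At least 2-fold higher was 1 of the 12, at 2 months, beside 0.228% of all probes. This gene was Ctgf, a matricellular protein of fibrosis, with 0.32 ± 0.05, 1.11 ± 0.33 and 0.06 ± 0.22. Its relative Cyr61 had 0.22 ± 0.28, -0.37 ± 0.38 and -0.75 ± 0.20.

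**Figure D4:**
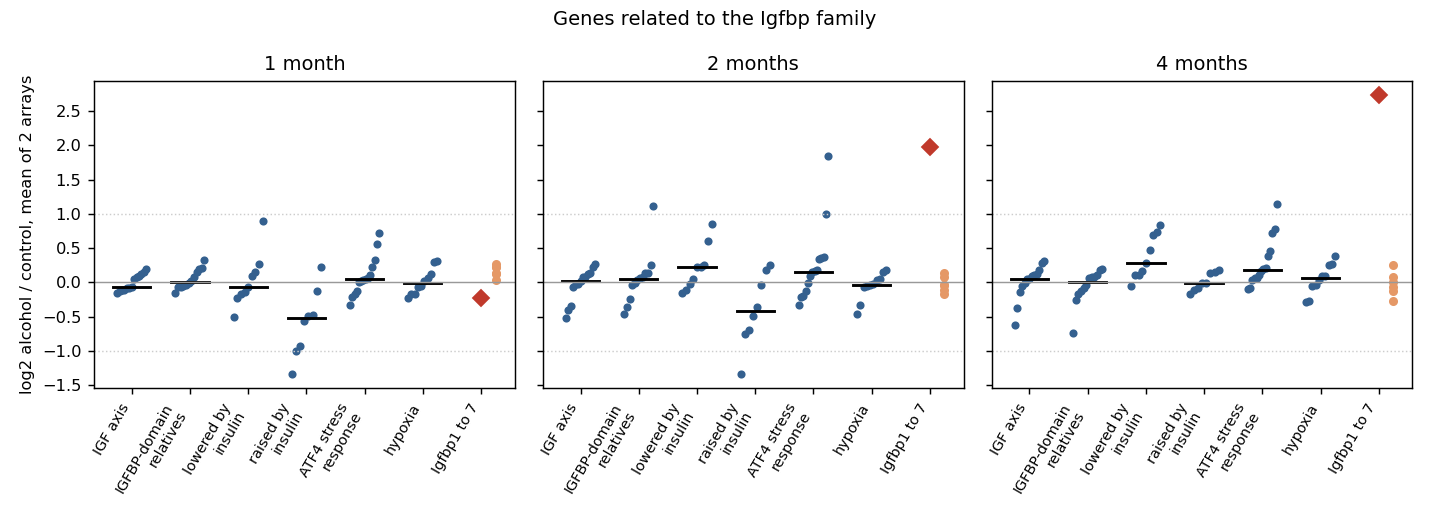
Log2 ratio of alcohol over control (mean of 2 arrays) at 1, 2 and 4 months for the genes of 6 lists (blue points, sorted within a list; black bars are medians; dotted lines mark 2-fold) beside Igfbp1 (red diamond) and the other 6 Igfbp genes (orange circles). Igfbp1 lies above every listed gene at 2 and 4 months, at 1.97 and 2.74, where the listed gene with the highest value reached 1.85 (Fgf21) and 1.15 (Ddit4).

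By the root mean square difference of the 6 array ratios, the genes nearest to Igfbp1 among 27899 other probes were Gadd45b, Cyp2c38, Tsku, Cyp3a44 and Cyp3a16. Gadd45b, a growth arrest and DNA damage inducible gene, was nearest at 0.46 log2, with ratios of 0.20 ± 0.33, 1.51 ± 0.49 and 2.27 ± 0.22. Cyp2c38, a cytochrome P450, was at 0.75, with 0.62 ± 0.10, 1.25 ± 0.38 and 2.12 ± 0.40. Tsku, a secreted leucine-rich protein named Lrrc54 on the array, was at 0.79, with 0.25 ± 0.08, 1.37 ± 0.16 and 1.62 ± 0.22. Cyp3a44 and Cyp3a16 were both at 0.81 and reached 2.28 ± 0.12 and 2.44 ± 0.88 at 4 months; they belong to a family of near-identical genes that a probe may not tell apart. All 5 were above 0 at 1 month, where Igfbp1 was at -0.23. The nearest member of its own family, Igfbp2, was at 1.81.

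**Figure D5:**
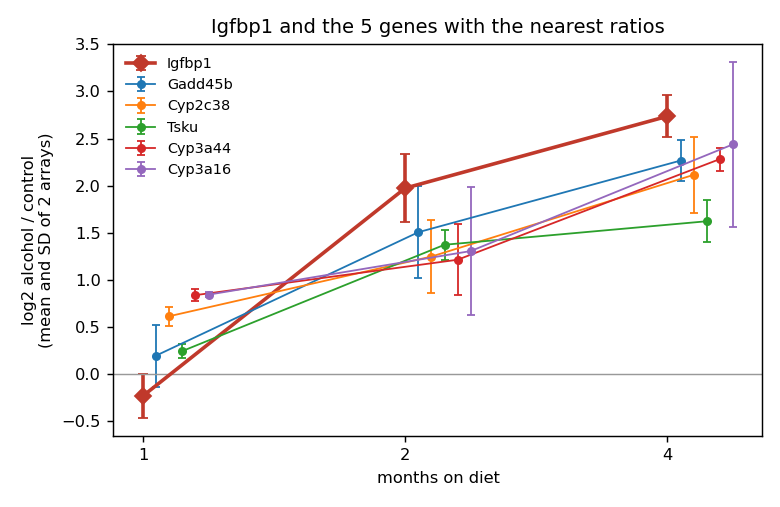
Log2 ratio of alcohol over control by months on diet for Igfbp1 (red diamonds, thick line) and the 5 genes whose 6 array ratios lay nearest to it; points are means and bars SDs of 2 arrays, drawn side by side for legibility. The genes reach between 1.62 and 2.74 at 4 months, and at 1 month Igfbp1 alone lies below 0, at -0.23.

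Markers of liver cells and of other organs were also examined. The 7 hepatocyte markers with a probe (of 8 listed) were well above background in every channel, with median ratios of 0.01, -0.13 and -0.01. Also above background throughout were 6 of 6 cholangiocyte, 5 of 7 pancreatic acinar and 4 of 6 kidney markers. Detection therefore does not test the tissue label. The stellate and cholangiocyte lists had medians between -0.04 and 0.10. Of the 8 Kupffer cell markers 1 passed 2-fold, Emr1 at 1 month with 1.23 ± 0.74, beside 0.148% of all probes higher at that month. The list's medians were 0.14, -0.04 and 0.05. The 6 kidney markers, from an organ that also makes Igfbp1, had medians between -0.06 and 0.05, and 0 passed 2-fold. At 4 months, where Igfbp1 was highest, the 7 measured markers of pancreatic acinar cells had a median of 0.74, against 0.05 and 0.02 before. They were led by Pnliprp1 at 2.42 ± 0.38 and Cpb1 at 2.17 ± 0.55, both not well above background throughout. The summed level of that list was 14.6, 14.9 and 20.1 in the alcohol pools and 15.5, 15.1 and 15.6 in the control pools. The part of these cells in the 4-month Igfbp1 ratio was not tested.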

How the data were processed

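Liver RNA pools of alcohol-fed and control mice were compared on 6 Agilent 4x44K arrays in a dye-swap layout. The authors deposited Agilent Feature Extraction 9.1.1.1 files, which hold for each channel a signal intensity already corrected for background and normalized for dye. The same deposited files hold the log10 ratio of red over green, its modeled error (handled here as a score) and its technical p-value, which measures the repeat of the spots and no variation between mice. A series table of log10 ratios was also deposited; turned to alcohol over control, it was within 0.02 log2 of the scanner ratio for 100% of 40929 single-spot probes, and its columns have a median of 0.

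Log2 ratios of alcohol over control were computed here from the processed signals and averaged over the spots of a probe, then over each pair of arrays. Array precision is limited by the number of arrays. Between 73.3% and 90.3% of spots were well above background. The brightest probe (by mean signal) stands for a gene with several. A gene was counted as changed at 2-fold. The monthly values were tested in R 4.3.3 with limma 3.58.1 over 37922 probes, those well above background in some channel of some array, and p was adjusted by Benjamini-Hochberg. The scripts were tested on simulated data. Symbols of 22951 probes were updated through RefSeq (GRCm38.p6), which also gave the promoters; all 7 members matched. Alternatives were the deposited ratios, the deposited table, normexp (offset 50) with loess, error weighting, median centring, the mean of all probes of a gene, each array alone, other thresholds (1.5-fold, or an error-model p), other filters and scalings, a t-test without moderation, linear time and leaving out each month.

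Named genes are all members, the list genes past 2-fold at any month or else the largest, and the 5 genes nearest to Igfbp1. Cyp2b10 and Cyp2b9 are named as the genes that ranked above Igfbp1 at 4 months. Further list genes were chosen after their values were seen (G6pc, Insr, Mttp, Trib3, Asns, Ddit3, Chac1, Vldlr, Cth, Igf1, Igfals and Cyr61). The members, the 6 gene lists and the 7 marker lists were chosen with earlier results of these data known.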

Additional observations from a re-analysis of the deposited data

Results flagged for a closer look

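Some members lay on one side of 0 on both arrays of 1 month and on the other side on both arrays of a later month. The difference between months was not tested apart from the slope over all 3 months, and 1 month lies on another slide than 2 and 4 months. Igfbp1 was 2.20 higher in log2 ratio at 2 months than at 1 month and 2.97 higher at 4 months. The brighter Igfbp3 probe, A_51_P228472, turned from above to below 0, with differences of -0.16 (2 months) and -0.25 (4 months) against 1 month, and the second Igfbp3 probe, A_52_P253179, did so at 2 months with -0.47. The Igfbp5 probe A_52_P281702 differed by -0.90 at 2 months and -0.39 at 4 months, whereas the other Igfbp5 probe did not hold one sign on both arrays of 2 months. Igfbp3 and Igfbp5 were within 2-fold at every month.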

How the results depend on the processing

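Under the 5 alternatives that keep both arrays of a pair and can change a gene with 1 probe, the Igfbp1 log2 ratio ran from -0.25 to -0.22 at 1 month, from 1.94 to 2.00 at 2 months and from 2.73 to 2.75 at 4 months. Of the pool levels, 2 moved by more than the spread of the dyes. The Igfbp1 rise from 2 to 4 months in the alcohol pools was 0.62 after loess and Aquantile normalization, against 0.67, and the difference of the control pools from 1 to 2 months was 0.034 with channels scaled by the median, against -0.50. With 1 array of a pair left out, the Igfbp1 log2 ratio ran from -0.39 to -0.06 at 1 month, from 1.72 to 2.23 at 2 months and from 2.58 to 2.89 at 4 months. In no alternative did limma call a member, for the mean or for the slope. Over all probes, limma called 7 for the mean with normexp and loess together and 6 with the filter on both channels, and for the slope 16 with normexp and loess together and 1 by the t-test without moderation, against 0 otherwise. Of 99 recomputed ratios of the other members under alternatives with both arrays, 7 moved by more than the spread of the pair. Settings with 1 array or 1 dye are left out of that count, since 1 of 2 values cannot lie beyond their SD from the mean. The slide as a random block could not be fitted with 3 monthly values. Signal over background limits the Igfbp3 probe A_52_P253179, which missed the mark on 1 array.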
